A study of Homo sapiens and Homo sapiens
Mus musculus with 19 samples.

Results

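The genes described here are the chemokine CXCL12, its 2 receptors CXCR4 and ACKR3, the chemokines CX3CL1, CCL2 and CXCL14, and the cytokine MIF with its surface receptor CD74, as transcribed by human neuroblastoma cells. They are 8 of the 57820 human genes in the count table and were taken by symbol. CXCL12 was picked because the sign of its TWIST1 effect is opposite in cultured cells and in tumors. Its levels and fold changes are therefore a description with no test. The other 7 were named as parts of the same signaling axis or as further tumor cell chemokines. The samples were SK-N-Be2C cells, an established human neuroblastoma line with extra copies of MYCN. The cells were either wild-type for TWIST1 (Control, 3 clones) or had TWIST1 knocked out by CRISPR/Cas9 (sgTWIST1, 3 clones). Tumors (4 Control and 4 sgTWIST1) were grown from each after injection into the left adrenal gland of athymic Swiss nude mice. TWIST1 is a basic helix-loop-helix transcription factor, and the comparison asked which transcripts differ with and without it, in culture and in the adrenal gland. Nude mice lack mature T cells but keep macrophages, endothelium and fibroblasts, so the tumors held human cells of the graft and murine cells of the host. The labels give 500000 injected cells in one place and 50000 in another, a tumor size of 1000 mm3 at collection, and no link between a tumor and a clone. The study reports that sgTWIST1 tumors took longer to reach their size. Time in the host therefore differed between the tumor groups and cannot be told apart from the knockout. All groups come from 1 cell line.

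CXCL12 is a secreted chemokine, usually made by stromal cells, that draws cells bearing CXCR4 toward it. CXCR4 signals through Gi proteins, while ACKR3 binds the same ligand, recruits arrestin and clears it. CX3CL1 is a membrane-anchored chemokine that proteases can shed and whose receptor is CX3CR1. CCL2 attracts monocytes through CCR2, and CXCL14 is a chemokine of epithelia and skin. MIF is a cytokine made by most cells that binds CD74 and can signal through CXCR4 as well. CD74 is also the invariant chain that escorts MHC class II molecules. Neuroblastoma cells are known to carry CXCR4, a receptor long studied for spread to the bone marrow.

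Promoter sequences of 5 of the 8 genes (CXCL12, CXCR4, CXCL14, MIF and CD74) were found in RefSeq windows on GRCh38.p14, and ACKR3, CCL2 and CX3CL1 had no entry. The 3 genes whose levels separated Control from sgTWIST1 samples in cells or tumors and which had an entry are shown as the 250 bases before the transcription start, 5′ to 3′ on the strand of the gene. Capitals mark the E-box letters CANNTG and the letters TATAAA, both searched on both strands. The E-box, the kind of site that TWIST1 and other basic helix-loop-helix factors bind, reads the same on both strands.
CXCL12 (chr10:44385098-44385347, minus strand): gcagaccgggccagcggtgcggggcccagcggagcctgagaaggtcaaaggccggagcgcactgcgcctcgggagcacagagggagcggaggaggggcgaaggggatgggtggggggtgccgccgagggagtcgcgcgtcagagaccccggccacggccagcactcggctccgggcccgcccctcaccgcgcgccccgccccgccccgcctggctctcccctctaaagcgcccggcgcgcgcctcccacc
CXCR4 (chr2:136118150-136118399, minus strand): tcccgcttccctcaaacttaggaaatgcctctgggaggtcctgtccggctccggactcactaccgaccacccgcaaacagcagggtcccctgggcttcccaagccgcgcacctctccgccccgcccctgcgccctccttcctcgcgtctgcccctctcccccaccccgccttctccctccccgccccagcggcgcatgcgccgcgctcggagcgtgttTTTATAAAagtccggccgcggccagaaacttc
CD74 (chr5:150412911-150413160, minus strand): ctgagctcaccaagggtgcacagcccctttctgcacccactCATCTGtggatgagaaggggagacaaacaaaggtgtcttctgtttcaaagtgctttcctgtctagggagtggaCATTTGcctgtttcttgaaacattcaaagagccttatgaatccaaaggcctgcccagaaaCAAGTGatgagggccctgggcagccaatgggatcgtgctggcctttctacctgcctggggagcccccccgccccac
The CXCL12 window held 0 E-boxes and a GC content of 78.0%. The CXCR4 window, the most upstream of 3 listed starts, held 0 E-boxes and a TATAAA match on each strand, overlapping each other and beginning 30 and 32 bases before the start. The CD74 window held 3 E-boxes, beginning 209, 136 and 76 bases before the start. The MIF window held 1 E-box, the CXCL14 window 0, and 1 of the other CXCR4 windows 1. Among 35114 human windows of the same length, 61.8% held an E-box and 10.7% held TATAAA on either strand, so a match here is a description of the letters and not of a bound site.

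Levels are given as CPM, human counts of a gene scaled to library size and by edgeR's trimmed mean of M values over the 14 samples. A log2(FC) is Control relative to sgTWIST1, so that a positive value is a higher level with TWIST1. A gene was tested when it was protein-coding and reached a log2 RPKM above 1 in at least 1 library, and a call needed an adjusted p under 0.05 and a log2(FC) of 1 or more in either direction. Human depth ran from 21426499 to 49990985 counts a sample. The neuroblastoma markers HAND2 and DBH were over 3 counts in every sample. TWIST1 itself was at 49.5 to 55.3 CPM in Control cells against 18.7 to 27.7 in sgTWIST1 cells, and at 54.2 to 80.6 against 18.7 to 38.4 in tumors, so its edited transcript was still present. The log2(FC) of TWIST1 was 1.18 and 1.27 (edgeR's quasi-likelihood test with Benjamini-Hochberg adjustment, adjusted p = 0.00223 and 0.000415). CXCL12, CXCR4, CX3CL1, MIF and CD74 were tested, and ACKR3, CCL2 and CXCL14 stayed below the threshold in every library. The gene lengths used here need not be those of the study, which kept more human genes under a cutoff of the same wording, ACKR3 among them. CXCL12 passed it only in the 4 Control tumors, CD74 only in 1 Control tumor, and CXCR4 in 1 Control and 2 sgTWIST1 tumors. CX3CL1 passed in all 6 Control cell libraries, 1 of 5 sgTWIST1 cell libraries and the 4 Control tumors, and MIF passed everywhere. Genes that enter through the group in which they are high had to differ, so the number of tested genes that were called is no evidence about the axis, and an adjusted p of such a gene is read beside its value with no filter. With no filter CXCR4 and CX3CL1 were still called in cells and CX3CL1 and CD74 in tumors.

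**Figure D1:**
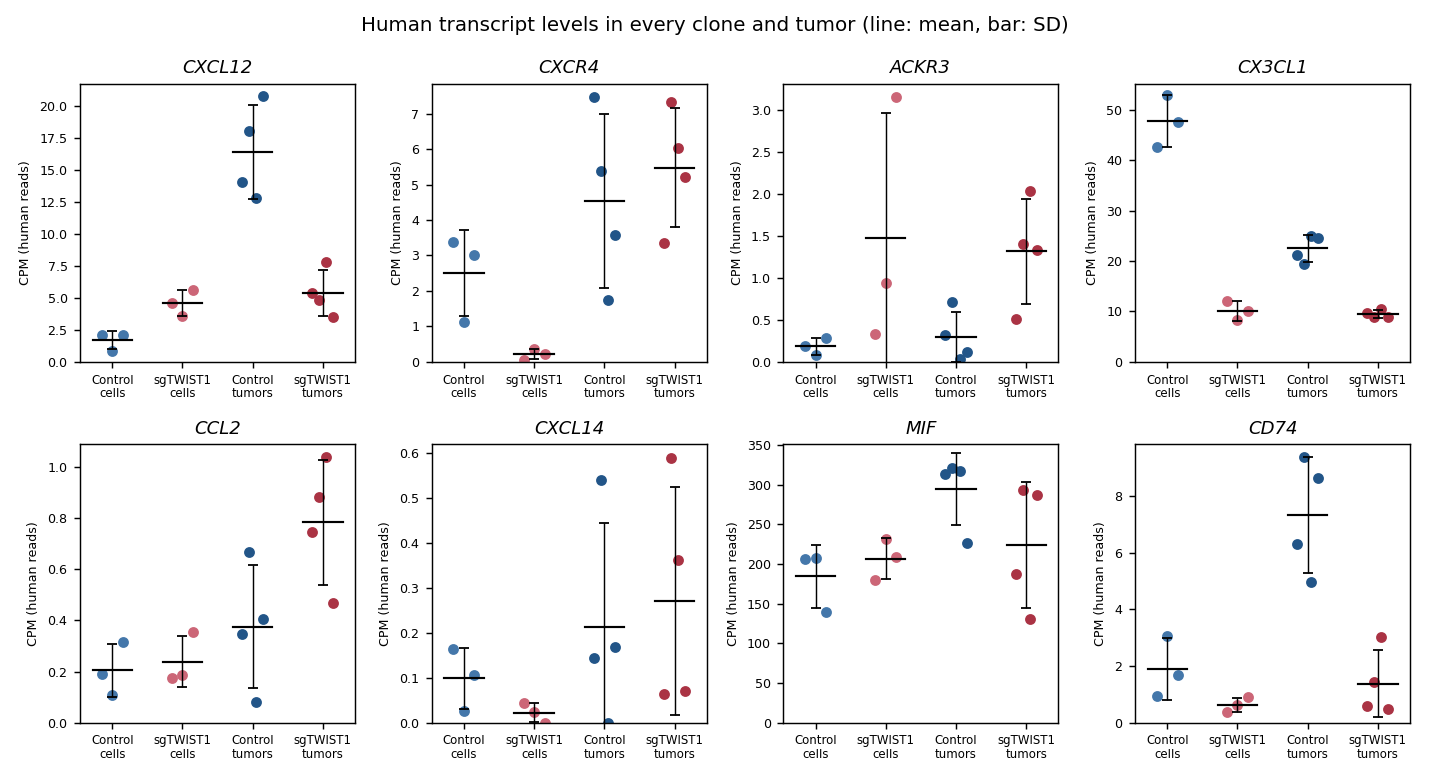
CPM of human counts (linear axes from 0, a scale of its own for each gene) in 3 Control and 3 sgTWIST1 clones and 4 Control and 4 sgTWIST1 tumors, with 1 point a sample, a line at the mean and a bar of 1 SD. CXCL12 was highest in Control tumors (12.8 to 20.7 CPM), CXCR4 was lowest in sgTWIST1 cells (0.0652 to 0.350 CPM), and CX3CL1 was highest in Control cells (42.6 to 53.0 CPM).

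CXCL12 (ENSG00000107562, chr10:44865613-44881941 on GRCh37, minus strand) was lowest in Control cells, followed by sgTWIST1 cells, sgTWIST1 tumors and Control tumors. It was at 2.10, 0.883 and 2.14 CPM in Control clones 1, 2 and 3 and at 4.61, 3.57 and 5.596 CPM in sgTWIST1 clones 1, 2 and 3. The Control tumors were at 14.05, 18.1, 12.8 and 20.7 CPM, and the sgTWIST1 tumors at 5.36, 4.86, 7.83 and 3.52 CPM. Control and sgTWIST1 did not overlap in either setting, with the knockout higher in culture and lower in the adrenal gland, while sgTWIST1 cells and sgTWIST1 tumors overlapped. In cells the means were 1.71 ± 0.714 (SD, n = 3) against 4.59 ± 1.01 (n = 3), a log2(FC) of -1.38 ± 0.38 (SE). In tumors they were 16.4 ± 3.67 (n = 4) against 5.39 ± 1.80 (n = 4), at 1.66 on the log2 scale. The difference between these 2 effects was 3.01 on the log2 scale. Control tumors stood 3.37 above Control cells, and sgTWIST1 tumors 0.35 above sgTWIST1 cells, a difference near 0 that was -0.01 with edgeR's count filter and -0.08 with no filter. Each of these values used the contrast by which the gene was picked. Opposite signs past both thresholds were held by 21 of the 852 genes called in both settings, 9 of them lower in Control cells and higher in Control tumors.

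The cell counts of CXCL12 were small, 33 to 77 in Control and 126 to 212 in sgTWIST1 clones. The labels place the cell libraries in 2 batches, with sgTWIST1 clone 3 in batch 1 only, and do not say what a batch is. Within batch 1 the Control clones were at 1.63, 0.712 and 2.58 CPM of their own library against 5.09, 3.67 and 5.81 in sgTWIST1 clones. Within batch 2 the values were 2.46, 1.00 and 1.68 against 4.08 and 3.66. Of markers for cells known to make CXCL12, the summed fibroblast list (8 genes) was at 129 to 213 CPM in Control cells and 267 to 426 in sgTWIST1 cells, and at 168 to 203 in Control tumors and 61.6 to 192 in sgTWIST1 tumors. Within cells and within tumors the median of that sum went the way of CXCL12, with overlap in tumors, but over the 4 groups it had another order (198 in Control cells, 373 in sgTWIST1 cells, 179 in Control tumors and 83.4 in sgTWIST1 tumors). Its part in the result was not tested. Its members did not move together, since DCN had 325 to 1006 counts in Control and 4133 to 8196 in sgTWIST1 cells while PDGFRB had 3239 to 4687 and 382 to 614. In tumors DCN had 55 to 147 counts in Control against 435 to 1720 in sgTWIST1, and PDGFRB 3251 to 7630 against 273 to 631. DCN thus went the way of CXCL12 in cells only, and PDGFRB in tumors only. In bulk RNA, fewer cells of a type and less RNA per cell cannot be told apart.

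Of the genes tested, the 5 whose log2 CPM followed CXCL12 most closely over the 14 samples were ZC3H12C (Pearson r = 0.942), SULF2 (r = 0.939), ETS1 (r = 0.930), RADIL (r = 0.918) and ISLR2 (r = 0.918). The points share libraries and 2 growth settings, so the r values describe the pattern only. SULF2, an extracellular sulfatase acting on heparan sulfate, averaged 80.6 CPM in Control cells, 135 in sgTWIST1 cells, 302 in Control tumors and 154 in sgTWIST1 tumors. The transcription factor ETS1 averaged 46.2, 59.3, 145 and 79.7 CPM in the same order.

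CXCR4 (ENSG00000121966, chr2:136871919-136876747, minus strand), the signaling receptor of CXCL12, was nearly lost from sgTWIST1 cells in culture and overlapped with Control in sgTWIST1 tumors. It was at 3.38, 1.12 and 3.01 CPM in Control clones and at 0.0652, 0.350 and 0.222 CPM in sgTWIST1 clones, which stand for 124, 42 and 86 counts against 3, 15 and 5. In tumors it was at 7.47, 5.37, 1.73 and 3.57 CPM in Control and at 3.34, 7.33, 6.02 and 5.20 CPM in sgTWIST1. The groups were apart in cells and fully interleaved in tumors. In cells the mean was 11.8 times higher in Control (2.51 ± 1.21 against 0.213 ± 0.143 CPM, SD, n = 3 each). Its log2(FC) there came to 3.59 ± 0.68 (SE), at an adjusted p of 0.00608 by edgeR, in a comparison in which 14.5% of 10888 genes were called. In tumors the means were 4.54 ± 2.46 and 5.47 ± 1.67 CPM (SD, n = 4 each) and the log2(FC) was -0.27 ± 0.39 (SE, edgeR adjusted p = 0.596), where 14.3% of 10889 genes were called. The 2 effects differed by -3.88 ± 0.79 (SE) on the log2 scale, an interaction that passed the test (edgeR adjusted p = 0.0053) as it did for 8.05% of 10889 genes. With no filter the interaction was -3.72 (edgeR adjusted p = 0.00151). sgTWIST1 clone 1 was at the 3 counts used here as the limit of detection, so the fitted fold depends on the prior count, and it ran from 3.09 to 4.30 when each clone was left out.

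ACKR3 (ENSG00000144476, chr2:237476430-237490997, plus strand), the scavenging receptor of CXCL12, had the opposite order to CXCR4 in cells, at very low levels. Control clones had 7, 3 and 8 counts (0.191, 0.0803 and 0.280 CPM) and sgTWIST1 clones 15, 40 and 71 counts (0.326, 0.935 and 3.15 CPM). Control tumors had 11, 17, 2 and 5 counts (0.319, 0.708, 0.0398 and 0.120 CPM), and sgTWIST1 tumors 24, 38, 45 and 57 counts (0.510, 1.40, 2.04 and 1.33 CPM). The cell groups did not overlap, although the sgTWIST1 clones themselves spread widely, and the tumor groups overlapped at 1 Control tumor. A two-sided exact permutation test of the mean CPM gave p = 0.1 in cells, the smallest that 3 against 3 allows, and p = 0.0571 in tumors. These exact p-values became 0.2 and 0.171 after adjustment over the 6 tests of ACKR3, CCL2 and CXCL14. The log2 ratio of the means was -3.00 in cells, and -1.78 without sgTWIST1 clone 3. With the count filter of edgeR in place of the RPKM threshold ACKR3 was tested and called in cells (log2(FC) -2.97 ± 0.81 SE, adjusted p = 0.0256) and not in tumors (-2.24 ± 0.76 SE, adjusted p = 0.0726). The study, with its own filter and DESeq2, lists ACKR3 among the genes that differed between these tumors. Human endothelial markers (7 genes, TEK and CDH5 among them), of a cell type known for ACKR3, summed to 4.97 to 8.65 CPM in Control and 6.96 to 14.7 in sgTWIST1 cells, and to 9.12 to 23.7 in Control and 26.1 to 88.6 in sgTWIST1 tumors. The members were split. TEK had 3 to 11 counts in Control against 52 to 126 in sgTWIST1 cells, and 10 to 32 against 264 to 1227 in tumors, and ESAM was also higher in sgTWIST1. KDR had 26 to 53 counts in Control against 0 to 15 in sgTWIST1 tumors, VWF had 33 to 43 against 10 to 24 in cells, and TIE1 and CLDN5 overlapped in both settings. Their part in the result was not tested.

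CX3CL1 (ENSG00000006210, chr16:57406389-57418956, plus strand) was, per unit of length, the most abundant of the 4 chemokine ligands in all 4 groups and was higher with TWIST1 in both settings. It was at 42.6, 53.0 and 47.6 CPM in Control clones and 12.1, 8.25 and 10.0 CPM in sgTWIST1 clones. Control tumors were at 21.2, 19.4, 24.9 and 24.7 CPM and sgTWIST1 tumors at 9.76, 8.92, 10.4 and 8.82 CPM. Control and sgTWIST1 did not overlap in cells or in tumors, Control cells lay above Control tumors, and the sgTWIST1 cells and tumors overlapped. The means were 47.7 ± 5.19 against 10.1 ± 1.92 CPM in cells (SD, n = 3 each), 4.71 times higher in Control. On the log2 scale this came to 2.30 ± 0.19 (SE), at an adjusted p of 0.000159 by edgeR. In tumors they were 22.5 ± 2.72 against 9.47 ± 0.75 CPM (SD, n = 4 each), 2.38 times higher in Control, or 1.30 ± 0.16 on the log2 scale (SE), at an adjusted p of 0.000109 by edgeR. The effect was smaller in tumors by 1.02 ± 0.24 (SE) on the log2 scale (edgeR adjusted p = 0.0144). That difference lies at the fold threshold, and with the count filter it was -0.76 (adjusted p = 0.454). It fell under 1 in size when any of 6 samples was left out (clone 2 of either group, Control tumors 1 and 2, sgTWIST1 tumors 3 and 4), with values from -0.88 to -0.98. CX3CL1 lies on 16q. The 42 tested genes within 5 Mb of it had a median log2(FC) of 0.64 in cells and 0.53 in tumors, against 0.00026 and 0.0044 over all genes tested. The part of that regional difference in the CX3CL1 values was not tested.

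**Figure D2:**
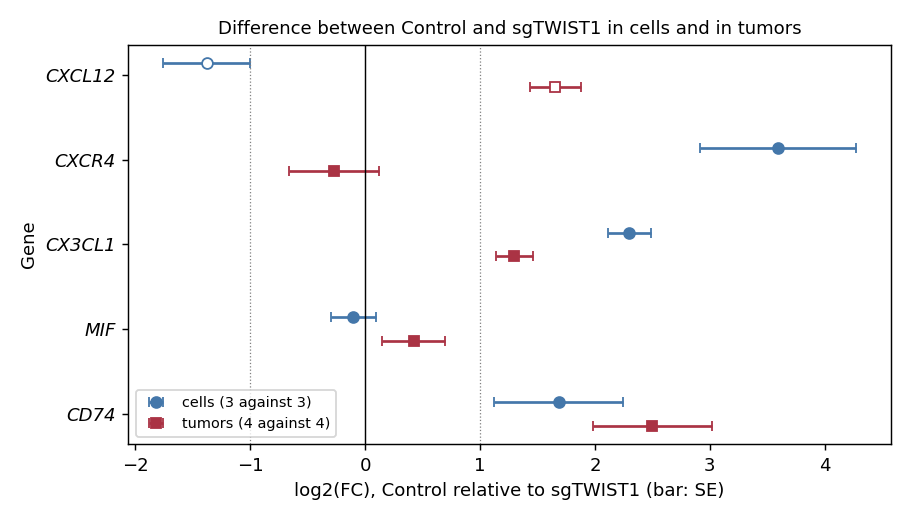
log2(FC) of Control relative to sgTWIST1 (horizontal axis, bars of 1 SE from edgeR, dotted lines at the fold threshold of 1) for the 5 genes over the expression threshold, in cells (circles, 3 against 3) and tumors (squares, 4 against 4), with CXCL12 open because it was picked by these values. CXCL12 lies at -1.38 in cells and 1.66 in tumors, CXCR4 at 3.59 and -0.27, and CX3CL1 is positive in both.

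CCL2 (ENSG00000108691, chr17:32582293-32584227, plus strand) and CXCL14 (ENSG00000145824, chr5:134906369-134914969, minus strand) were barely transcribed by the tumor cells. CCL2 had 4 to 9 counts in every cell sample, 12, 16, 4 and 17 counts in Control tumors and 35, 24, 23 and 20 counts in sgTWIST1 tumors. As CPM the tumor values were 0.348, 0.666, 0.0796 and 0.407 against 0.744, 0.884, 1.04 and 0.467, so that the groups overlapped. The exact permutation tests gave p = 0.7 in cells and p = 0.0571 in tumors (adjusted 0.8 and 0.171). CXCL14 had 0 to 6 counts in cells and 0 to 16 in tumors, with p = 0.2 and p = 0.8 by the same exact test (adjusted 0.3 and 0.8). It overlaps SLC25A48 on the other strand (0 to 54 counts), and without a stated strand setting reads from the 2 genes cannot be told apart.

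MIF (ENSG00000240972, chr22:24236570-24237414, plus strand) was by far the most abundant of the 8 per unit of length, with a mean RPKM of 253 in Control cells, 283 in sgTWIST1 cells, 404 in Control tumors and 307 in sgTWIST1 tumors. The next gene by RPKM was CX3CL1 in 3 groups, with means of 8.01, 1.70 and 3.78 in Control cells, sgTWIST1 cells and Control tumors, and CXCR4 in sgTWIST1 tumors, with 1.89 against 1.59 for CX3CL1, within their spread. In CPM, MIF was at 207, 208 and 139 in Control clones and 180, 232 and 208 in sgTWIST1 clones. Control tumors were at 314, 322, 317 and 227 CPM and sgTWIST1 tumors at 187, 293, 130 and 287 CPM. Both pairs of groups overlapped, and neither difference passed the test (log2(FC) -0.10 ± 0.20 in cells, edgeR adjusted p = 0.706, and 0.42 ± 0.28 in tumors, adjusted p = 0.232, SE). The antisense gene MIF-AS1 had 27 to 88 counts, against 2880 to 15936 for MIF.

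CD74 (ENSG00000019582, chr5:149781200-149792532, minus strand), the receptor of MIF, was higher with TWIST1 in tumors. Control tumors were at 6.32, 9.37, 4.98 and 8.65 CPM and sgTWIST1 tumors at 0.595, 1.44, 3.03 and 0.467 CPM, with no overlap. The means were 7.33 ± 2.04 and 1.38 ± 1.18 CPM (SD, n = 4 each), a ratio of 5.30. Their log2(FC) was 2.50 ± 0.52 (SE), at an adjusted p of 0.00283 by edgeR. CD74 entered this test through 1 Control tumor, and with no filter its log2(FC) was 2.68 (edgeR adjusted p = 0.000433). In cells the Control clones were at 0.928, 3.08 and 1.68 CPM and the sgTWIST1 clones at 0.391, 0.631 and 0.888 CPM, which also did not overlap. There the log2(FC) was 1.68 ± 0.56 (SE) and missed the threshold (edgeR adjusted p = 0.0515), and it passed with DESeq2 (adjusted p = 0.0259), with the count filter (0.0471), with the clone number as a replicate block (0.0353) and without Control clone 1 (0.0217). The effects in tumors and cells differed by 0.79 ± 0.82 (SE, edgeR adjusted p = 0.553). Of MHC class II genes, the usual companions of CD74, HLA-DRA had 0 to 5 counts in every sample. Of that list RFX5 was the 1 gene of 12 over the threshold and was not called. HLA-DPB1 had 8 to 37 counts in Control and 0 to 1 in sgTWIST1 tumors. The tumor groups overlapped for every other gene of that list, HLA-DPA1 among them (0 to 38 against 0 to 21 counts). Human macrophage markers (8 genes, PTPRC and CD68 among them) summed to 0.538 to 7.75 CPM in Control and 1.84 to 6.67 in sgTWIST1 tumors, a sum that overlapped between the groups. Their part in the CD74 difference was not tested.

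CD74 in Control and CXCR4 in sgTWIST1 samples were higher in tumors than in cultured cells. Between Control tumors and Control cells, CD74 was 3.87 times higher in tumors (log2 difference 2.01 ± 0.58 SE, edgeR adjusted p = 0.0146), in a comparison in which 11.8% of 10889 genes were called. With no expression filter the difference was 1.78 (edgeR adjusted p = 0.0156). The call was lost without Control clone 1 (1.67, adjusted p = 0.0526) or clone 3 (1.92, adjusted p = 0.056). CX3CL1 stood at -0.97 ± 0.17 (SE, adjusted p = 0.000566) and MIF stood 0.78 ± 0.28 higher (adjusted p = 0.041), both under the fold threshold, and CXCR4 was 0.93 ± 0.51 higher (adjusted p = 0.165). Between sgTWIST1 tumors and sgTWIST1 cells, CXCR4 was 25.7 times higher in tumors (log2 difference 4.81 ± 0.65 SE, adjusted p = 7.29e-05), where 12.7% of genes were called. CXCR4 passed the expression threshold in tumor libraries only, and with no filter its difference was 4.42 (edgeR adjusted p = 2.05e-06). In the same comparison CX3CL1 (0.04 ± 0.17, adjusted p = 0.866), MIF (0.27 ± 0.28, adjusted p = 0.453) and CD74 (1.21 ± 0.62, adjusted p = 0.128) were not called with the threshold. These comparisons share their samples with those of Control against sgTWIST1. Cells and tumors also differed in the RNA input and the sequencing lanes, which cannot be told apart from growth in the host. The labels name a different extraction kit for each, and the study's methods a single kit.

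Other chemokine genes were mostly below the expression threshold in the human reads. Of 40 further ligands in the table, 0 reached the expression threshold and 4 were never over 3 counts, and of 22 further receptors CCR10 alone did, with log2(FC) of 0.01 in cells and 0.16 in tumors (edgeR adjusted p = 0.991 and 0.632). CXCR5, the receptor of CXCL13, stayed below the threshold but was over 3 counts in each of the 14 samples, with up to 231. It averaged 3.00 and 3.11 CPM in Control and sgTWIST1 cells and 4.03 and 2.30 CPM in the tumors, with overlap in both settings. CX3CR1, the receptor of CX3CL1, had at most 25 counts in any sample, and CXCL16, another membrane-anchored chemokine, at most 40.

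The genes that work around these ligands and receptors were followed in 6 lists of 121 genes (other ligands and receptors, MIF and CD74 partners, ligand processing, CXCR4 signaling and MHC class II), of which 38 were tested. In cells 8 were called higher in Control (21.1%, against 8.28% of all genes tested) and 1 lower (2.63%, against 6.25%). In tumors 7 were higher (18.4%, against 6.81%) and 2 lower (5.26%, against 7.47%). The median log2(FC) of the 38 was 0.02 in cells and -0.01 in tumors, against 0.00026 and 0.0044 over all genes tested. The lists were drawn up with earlier results of these data known, so the shares describe them and no more.

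Among genes that hold or cut chemokines at the cell surface, the heparan sulfate proteoglycan SDC2 was at 151 ± 40.1 against 24.2 ± 6.21 CPM in cells (SD, n = 3 each) and at 78.0 ± 15.02 against 9.00 ± 4.53 CPM in tumors (n = 4 each), with log2(FC) of 2.69 and 3.17 (edgeR adjusted p = 0.000297 and 1.44e-05). Its relatives SDC1 (1.26) and SDC4 (1.90) were called in cells and SDC3 (2.25) in tumors, and their values in the other setting were -0.42, 0.33 and -0.59. Without Control clone 2, SDC3 was called lower in Control cells (-1.10, edgeR adjusted p = 0.0104). The metalloprotease MMP2, which can trim CXCL12, was higher in Control in both settings (1.19 and 1.16), though its cell value was 0.85 without Control clone 2. DPP4, another enzyme that trims CXCL12, was below the expression threshold. The secreted protease HTRA1, on the list of MIF and CD74 partners, went the other way, at 0.106 ± 0.0941 CPM in Control cells against 11.1 ± 2.53 without TWIST1 (SD, n = 3 each). In tumors it was at 0.554 ± 0.398 against 5.64 ± 4.70 CPM (n = 4 each). It was called in both settings (edgeR adjusted p = 0.000138 and 0.00208), with Control cells close to the 3-count limit. HTRA1 was still called in both with no filter. CD44, the signaling partner of CD74, was below the threshold and so was not tested, yet the cell groups lay far apart, at 0.504 ± 0.190 CPM in Control against 12.1 ± 1.86 in sgTWIST1 cells (SD, n = 3 each). In tumors CD44 ran from 0.319 to 2.21 CPM in Control and from 0.0933 to 1.99 in sgTWIST1 and overlapped. With the count filter of edgeR it was called in cells (log2(FC) -4.66 ± 0.30 SE, adjusted p = 1.12e-05), and with no filter as well (-4.71 ± 0.35 SE, edgeR adjusted p = 7.01e-20).

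Downstream of CXCR4, the Gi protein subunit GNAI1 was at 43.1 ± 5.33 against 4.54 ± 1.65 CPM in cells (SD, n = 3 each) and at 41.6 ± 7.79 against 8.58 ± 3.49 CPM in tumors (n = 4 each), with log2(FC) of 3.28 and 2.32 (edgeR adjusted p = 0.000218 and 3.5e-05). The focal adhesion kinase gene PTK2 was also higher in Control in both settings (1.74 and 1.41). RAC2, a small GTPase, and ELMO1, which helps to activate Rac, were called in cells (4.04 and 1.23), where the tumor values were -0.49 and 0.10. In tumors the calls were RGS16 (2.39) and RGS2 (1.07), which dampen G protein signaling, and GRK5 (-1.88), a kinase that marks such receptors for arrestin, where the cell values were 0.91, 0.03 and 0.83. RGS2 fell just under the fold threshold without Control tumor 3 (0.98) or 4 (0.99). RGS16 was called in cells without Control clone 3 (1.09) and GRK5 without Control clone 1 (1.11). Of 9 tested factors listed as inputs to transcription of these genes, NR2F1 (6.41 in cells and 3.83 in tumors) and TWIST1, the edited gene itself, were called in both settings and EPAS1, encoding the hypoxia factor HIF-2 alpha, in tumors (2.09, edgeR adjusted p = 7.91e-05). These are 22.2% in cells and 33.3% in tumors, against 14.5% and 14.3% of all genes tested. Both shares count TWIST1, which defines the groups, so they are no evidence about the other factors. EPAS1 was also called in cells with DESeq2 (1.23, adjusted p = 0.0323) and without sgTWIST1 clone 3 (1.73, edgeR adjusted p = 0.0451). The same held by edgeR with no filter (1.12, adjusted p = 0.00437), with the replicate block (1.32, 0.0251) and in the fit of all groups (1.26, 0.0244).

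**Figure D3:**
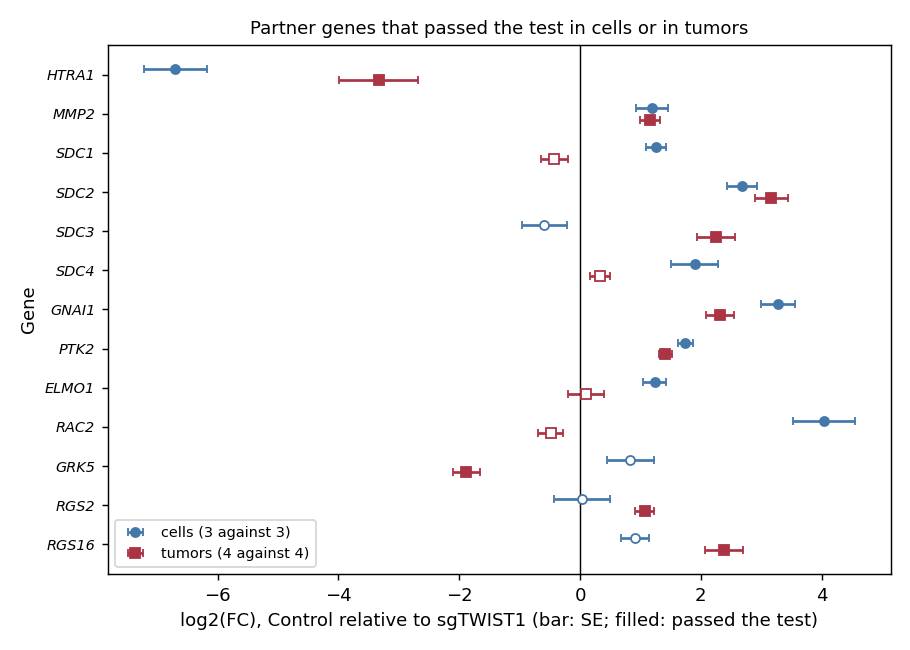
log2(FC) of Control relative to sgTWIST1 (horizontal axis, bars of 1 SE from edgeR) for the 13 list genes called in cells or in tumors, with filled symbols for a call, circles for cells and squares for tumors. HTRA1 lies far to the left in both settings, SDC2, GNAI1, PTK2 and MMP2 lie to the right in both, and RAC2 moves from 4.04 in cells to -0.49 in tumors.

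In the host tissue the murine orthologues of the 8 genes did not separate Control from sgTWIST1 tumors, in a comparison with little power. On simulated murine counts edgeR recovered 11 of 100 genes changed 2-fold and 80 of 100 changed 4-fold, so a 2-fold difference could be missed. The murine counts made up 2.44% to 13.97% of all counts in a tumor, from 577479 to 7248286, and are given as CPM of murine counts. Murine Cxcl12 was at 128, 90.8, 185 and 197 CPM in Control tumors and 134, 43.0, 330 and 208 CPM in sgTWIST1 tumors, and murine Cxcr4 at 218, 114, 72.1 and 63.3 against 96.2, 125, 44.9 and 74.5. Murine Cd74, abundant in macrophages and other antigen-presenting cells, was at 202, 605, 367 and 412 against 484, 512, 494 and 248. The groups overlapped for each of the 8 orthologues, with log2(FC) from -0.44 (Cxcl12) to 0.72 (Cxcl14) and an adjusted p of 1 for each by edgeR. At the murine thresholds (adjusted p under 0.05 and a log2(FC) of 0.5 or more in either direction) 0% of 12758 murine genes were called by edgeR, 657 had an unadjusted p under 0.05, and DESeq2 called 56, with none of the 8 orthologues among them. The receptors that would read the human ligands in the host, Ccr2 (61.1 ± 34.6 against 44.2 ± 22.2 CPM) and Cx3cr1 (134 ± 81.6 against 103 ± 38.0 CPM, SD, n = 4 each), were not called. The decoy receptor Ackr2 had the lowest unadjusted p of the host list (log2(FC) -1.05, adjusted p = 0.958 by edgeR).

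**Figure D4:**
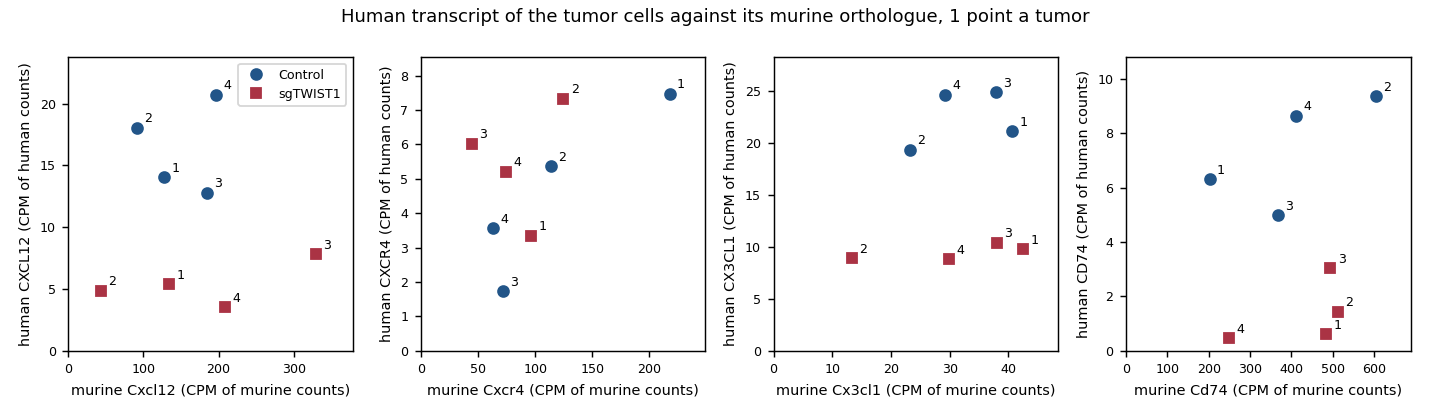
Human CPM (vertical axes) against CPM of the murine orthologue (horizontal axes), 1 point for each of 4 Control (circles) and 4 sgTWIST1 tumors (squares), numbered as in the text. Human CXCL12, CX3CL1 and CD74 split the 2 groups while the murine values overlap, and human CXCR4 overlaps as well.

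Reads that match both species were kept in the human counts by the study, so murine transcripts could add to the human values. Control tumor 2 had the fewest murine counts, with 39 of Cxcl12 and 260 of Cd74, and in it human CXCL12 had 434 counts and human CD74 225. These were 18.1 and 9.37 CPM, the second highest and the highest of the 8 tumors. In sgTWIST1 tumor 3, which had the highest murine share (13.97%), murine Cxcl12 had 1152 counts and human CXCL12 173, and its human CXCL12 (7.83 CPM) and CD74 (3.03 CPM) were the highest of the 4 sgTWIST1 tumors. In cultured clones, which hold no murine cells, human CXCL12 and CD74 were both counted in each. Human CXCR4 had 157, 199, 133 and 223 counts in the sgTWIST1 tumors, where murine Cxcr4 had 226, 177, 157 and 269. In Control tumors human CXCR4 had 87 to 258 counts and murine Cxcr4 49 to 629. The higher CXCR4 of sgTWIST1 tumors than of sgTWIST1 cells, and its interaction, carry the same limit. The part of murine reads in the human values was not tested. Murine skeletal muscle markers (8 genes) summed to 38.0 to 8585 CPM in Control and 12.7 to 261 in sgTWIST1 tumors, and adrenal cortex markers (7 genes) to 9.31 to 22.7 and 5.82 to 1280, so the host tissue around the tumors differed between samples. The part of that difference in the murine values was not tested.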

How the data were processed

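RNA-seq libraries (ribosomal RNA depleted, 100-base single reads) covered cultured SK-N-Be2C clones and xenografts with and without TWIST1, deposited as 11 cell libraries and 8 tumor libraries. Per the labels and the study's methods, the authors mapped reads with STAR 2.5.2b to the human (hg19) and mouse (mm10) genomes together, estimated gene counts with RSEM 1.3.0 and used DESeq2 1.26.0. The deposited values are expected counts per gene, in 1 human and 1 murine table. Here the 2 batches of a clone were summed to 1 sample, expected counts were rounded, and 14 samples were analysed in R 4.3.3.

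Control was compared with sgTWIST1 in cells (3 against 3 clones) and in tumors (4 against 4) in separate fits by edgeR 4.0.16 (quasi-likelihood test, TMM scaling, prior count 2), and the difference between these effects and the change from cells to tumors in 1 fit of all groups. Human genes were tested if protein-coding with log2 RPKM above 1 in a library (gene types and exon lengths from GENCODE v44lift37), and murine genes if they passed filterByExpr. Benjamini-Hochberg adjustment covered all genes tested in each model fit, and the 6 exact tests of the genes under the threshold were adjusted together. The alternatives were DESeq2 1.42.0, its size factors, both other filters, a replicate block, 1 fit of all groups, batch 1 alone and leaving out each sample. ACKR3, CCL2 and CXCL14 fell below the threshold and were compared by exact permutation tests of CPM, and their edgeR values were added after seeing the data. Named genes were the 8, any called gene of the lists, and the 5 genes most correlated with CXCL12.

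The members, the lists and the tests were chosen with earlier results of these data known. The scripts were tested on simulated data. Replicates of a group differed by more than counting noise (chi-square per degree of freedom 21.5 to 229 over 18 pairs), and batches of a clone less (5.52 to 9.20 over 5 pairs). The labels call the cell replicates clones and the study's text calls them biological replicates, so p-values measure the spread between these samples. Limits of detection (3 counts a library) cover counting error only.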

Additional observations from a re-analysis of the deposited data

Results flagged for a closer look

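Of 32 groups of 4 tumors examined (8 human genes and 8 murine orthologues, Control and sgTWIST1), 3 held a sample far from the other 3, where chance gives about 1 in 20 groups. Human MIF was at 227 CPM in Control tumor 4 against 314 to 322 in the other Control tumors. Murine Ackr3 was at 141 CPM in Control tumor 1 against 34.9 to 43.0 in the others. Murine Cd74 was at 248 CPM in sgTWIST1 tumor 4 against 484 to 512 in the others. The effect of TWIST1 differed between tumors and cells by -3.88 on the log2 scale for CXCR4 and by -1.02 for CX3CL1, both by the interaction test of edgeR, the latter at the fold threshold. For CXCL12 the difference was 3.01, which is the pattern it was picked for and was not tested.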

How the results depend on the processing

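In each comparison 4 genes other than CXCL12 were tested. They gave 2 calls in cells (CXCR4, CX3CL1), 2 in tumors (CX3CL1, CD74) and 2 for the interaction (CXCR4, CX3CL1). Growth gave 1 call in Control (CD74) and 1 in sgTWIST1 (CXCR4). Over all genes tested the called shares were 14.5%, 14.3%, 8.05%, 11.8% and 12.7% in the same order. With edgeR's count filter over all gene types, and likewise with no filter, cells gave 4 calls (ACKR3 and CD74 added), of 5 and 7 genes tested. The interaction then gave 1 (CX3CL1 lost) and Control growth 2 (CX3CL1 added), of 7 tested under either filter. With no filter the lists gave 14 calls in cells among 120 genes tested, in place of 9 among 38 (CD44, GPC1, JAK2, MMP9 and MMP14 added). The cause was not tested. Leaving out each sample gave 2 to 3 calls in cells, 1 to 2 for the interaction and 0 to 2 for Control growth, where CD74 lost its call without Control clone 1 or 3. The tumor calls and the growth call of CXCR4 were the same genes under each alternative run for them, and 0 orthologues were called under any. Over all genes, cells gave 1583 calls against 3174 with the count filter and 3781 with none, tumors 1555 against 2428 with the count filter, Control growth 1285 against 2466 and 2053, sgTWIST1 growth 1379 against 2822 and 2374, and the interaction 877 against 578 with no filter. For murine genes, with 0 calls, DESeq2 gave 56, no filter 497, the replicate block 5, and fits without Control tumor 1 or 2 gave 39 and 7. With the clone or tumor number as a replicate block the calls were 3 in cells (CD74 added), 2 in tumors, 2 for the interaction, 9 and 9 for the lists and 0 for the orthologues. Samples with the same number correlated at 0.0994 to 0.314 in cells and -0.19 to 0.282 in tumors; each clone correlated best with its own number, tumors did not, and the labels give the numbers no shared origin. CCL2 and CXCL14 (0 to 35 counts) were too shallow to show small differences. The log2(FC) of CXCL12 ran from -1.57 to -1.09 in cells and from 1.54 to 1.87 in tumors when each sample was left out. CXCL12 was picked by these signs, so the ranges are a description with no test. For ACKR3 in tumors the exact permutation p was 0.0286 without sgTWIST1 tumor 1, the smallest that 3 against 4 can give being the same. DESeq2, its size factors, the replicate block and the fit of all groups were not run for ACKR3, CCL2 and CXCL14, which lie below the expression threshold.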
